A study of Mus musculus with 15 samples.

Results

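The 10 heat shock chaperones and co-chaperones described here are Hspa1a, Hspa1b, Hspa5, Hspa8, Hsp90aa1, Hsph1, Hspb1, Cryab, Dnajb1 and Bag3. They were chosen by symbol alone from the 22798 gene symbols of the deposited table, and all 10 were counted in each of the 15 libraries and kept by the filter on low counts. RNA was sequenced from skeletal muscle of C57BL/6 mice aged 12 months, kept on a normal diet and starved overnight before sampling. There were 3 libraries labelled CD47-KO, from mice described as CD47-/- (without CD47, a cell surface receptor of thrombospondin 1), 6 from exercised mice and 6 from sedentary wild-type mice. The labels do not give the muscle sampled, the kind or length of the exercise, the genotype of the exercised mice beyond the strain, or the allele of the knockout. They also do not state that the libraries came from separate animals, so each p-value measures only the spread between these libraries, which may be technical.

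The libraries held 76005277 to 84364189 counts in the CD47-KO group, 54851831 to 77628546 in the exercise group and 50928458 to 70774311 in the sedentary group. Levels are given as CPM, the share of a library's counts on a common scale after TMM scaling, and changes as log2 fold changes from edgeR with their standard error (SE). Cd47 was measured at 11.5 to 12.1 CPM in the libraries labelled CD47-KO, 10.8 to 15.7 CPM in exercise libraries and 11.4 to 16.4 CPM in sedentary libraries. Its log2 fold change in CD47-KO against sedentary was -0.26 (SE 0.17, adjusted p = 0.295 by edgeR's quasi-likelihood test), so CD47-KO is used below as the label of these libraries and not as a checked genotype. The muscle fibre markers, such as Acta1 and Ckm, were detected in every library (10 of 10 genes). In the exercise and sedentary groups, libraries numbered 1 to 3 stood apart from those numbered 4 to 6, a split that no label names: 31.5% of 15571 genes differed between these sets. In the libraries labelled CD47-KO the number of genes that differed from sedentary was 3719. After a correction for the GC content of transcripts it was 1749. The corrected value is therefore given where it bears on a call, except in the closing section.

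Heat shock proteins are molecular chaperones, which hold unfolded proteins in solution and help them to refold. The HSP70 proteins bind exposed hydrophobic stretches in a cycle driven by ATP, J proteins such as Dnajb1 deliver clients and start ATP hydrolysis, and nucleotide exchange factors such as Hsph1 and Bag3 release them. HSP90 completes the folding of kinases and receptors, and the small heat shock proteins Hspb1 and Cryab bind unfolding proteins without ATP. In muscle the small heat shock proteins and Bag3 sit at the Z-disc, where chaperone-assisted autophagy removes damaged filamin, and in rats slow oxidative muscle is known to hold more inducible HSP70 and alphaB-crystallin than fast muscle. The transcription factor HSF1 induces many of these genes through inverted repeats of the pentamer nGAAn in their promoters, while Hspa5 is induced by endoplasmic reticulum stress through the element ERSE.

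The promoter stretches that hold these elements are shown because heat shock and endoplasmic reticulum stress induce different members through them. RefSeq promoter windows of GRCm38.p6, from 250 bases before to 50 bases after each start, matched 7 of the 10 members; Hspa8, Hsp90aa1 and Cryab had no entry. The inverted repeat GAANNTTC or TTCNNGAA, each of which reads the same on both strands, was found in the windows of 5 of these 7 genes (Hspa1a, Hspa1b, Hspb1, Hsph1 and Bag3, in Bag3 only after the start), against 15.06% of all 32851 promoter windows of this length. The ERSE (CCAAT and CCACG with 9 bases between them), searched on both strands, was found in the window of Hspa5 and in 0.119% of all windows. Below, the match is in capitals with 20 bases on either side, 5′ to 3′ on the strand of the gene. In Hspa1a (chr17:34972233-34972280, minus strand) and Hspa1b (chr17:34959315-34959362, minus strand) the match began 104 bases before the start, and their 300-base windows differed at 4 bases. In Hspb1 (plus strand) the matches began 117 bases (chr5:135887782-135887829) and 97 bases (chr5:135887802-135887849) before the start. In Hsph1 (chr5:149636342-149636389, minus strand) it began 33 bases before the nearer of its RefSeq starts, and in Hspa5 (chr2:34772005-34772063, plus strand) 65 bases before the RefSeq start. The GENCODE vM21 spans of Hsph1 and Hspa5 reach farther upstream and cover these matches. These are matches of letters and not measured binding sites.
Hspa1a: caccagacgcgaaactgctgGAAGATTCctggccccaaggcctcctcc
Hspa1b: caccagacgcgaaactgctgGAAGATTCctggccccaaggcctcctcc
Hspb1, farther match: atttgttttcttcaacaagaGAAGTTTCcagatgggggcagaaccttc
Hspb1, nearer match: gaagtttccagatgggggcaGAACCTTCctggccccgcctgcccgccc
Hsph1: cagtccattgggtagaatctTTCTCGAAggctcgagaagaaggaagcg
Hspa5: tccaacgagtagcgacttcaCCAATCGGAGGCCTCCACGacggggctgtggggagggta

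Per length, 3 chaperones had the highest median levels in every group: the constitutive cytosolic HSP70 Hspa8, alphaB-crystallin (Cryab), which binds desmin and titin, and the small heat shock protein Hspb1. In the libraries labelled CD47-KO the medians were 252 CPM per kilobase of merged exons for Hspb1, 185 for Hspa8 and 129.6 for Cryab. In exercise libraries they were 323 for Cryab, 219.5 for Hspa8 and 186 for Hspb1, and in sedentary libraries 247 for Cryab, 216 for Hspa8 and 192 for Hspb1, also in CPM per kilobase. The ranges of these 3 genes overlapped each other within each group, so their order was not resolved. Bag3, the co-chaperone of filamin turnover, came next in each group (78.3, 81.2 and 61.9 CPM per kilobase in CD47-KO, exercise and sedentary). The endoplasmic reticulum HSP70 Hspa5 was lower, at 19.6, 17.4 and 18.2 CPM per kilobase in CD47-KO, exercise and sedentary. The J protein Dnajb1 had the lowest median in every group, at 2.41 CPM per kilobase in CD47-KO and 2.56 in sedentary libraries, and its highest exercise library was at 2.76. Dividing by the longest transcript instead of the merged exons raised Hspa8 in the libraries labelled CD47-KO to 252 CPM per kilobase and left the genes in places 1 to 4 and the last place the same in every group. It changed the order of the genes between them, which is therefore not given.

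On GRCm38 the members that the comparisons turn on lie at chr12:110690605-110702728 (Hsp90aa1, minus strand), chr5:149614287-149636376 (Hsph1, minus strand), chr9:40800984-40810087 (Hspa8, plus strand) and chr9:50751325-50756636 (Cryab, plus strand), each span covering the exons and introns of a protein-coding gene (GENCODE vM21).

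The 10 chaperones together took 0.129 to 0.332% of the counts of a library, and Hspa8 alone made up 20.5 to 60.3% of that share. Across all 15 libraries the inducible HSP70 pair varied most, with a ratio of highest to lowest level of 19.7 for Hspa1a and 17.7 for Hspa1b. Bag3 varied least, with a ratio of 2.30.

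**Figure D1:**
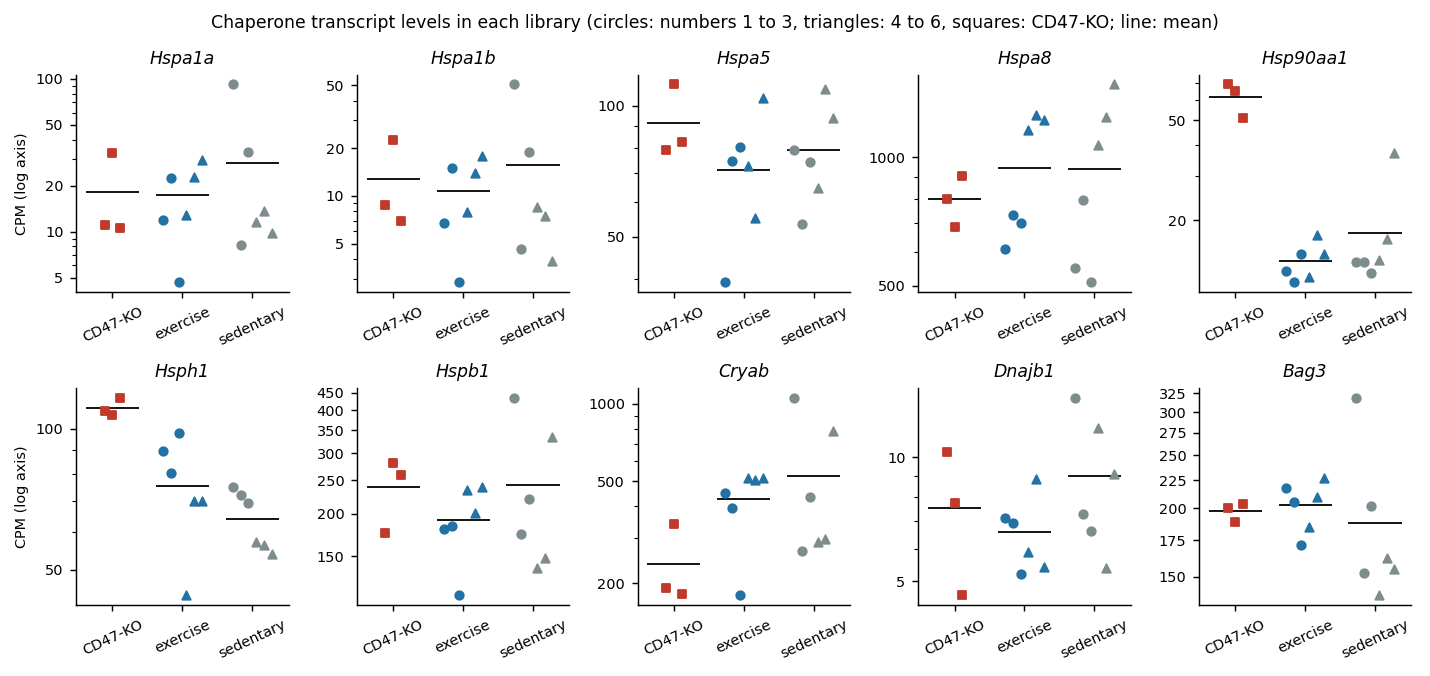
Level of each of the 10 chaperones in every library, in CPM on a log axis, by group (CD47-KO, exercise, sedentary). Each point is a library, with circles for exercise and sedentary numbers 1 to 3, triangles for their numbers 4 to 6, squares for CD47-KO, and lines for group means. The CD47-KO points lie above all others in Hsp90aa1 (50.95 to 69.3 CPM, highest other 36.9) and in Hsph1 (107 to 116 CPM, highest other 97.6), while the groups overlap in the other 8 genes.

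In the libraries labelled CD47-KO against sedentary, 2 of the 10 chaperones rose and 0 fell. Hsp90aa1 was 3.47-fold higher and Hsph1, the HSP110 that releases clients from HSP70, was 1.73-fold higher. Over all 17975 genes tested, 11.9% were called higher and 8.75% lower (Benjamini-Hochberg adjusted p under 0.05 in edgeR's quasi-likelihood test). The 2 of 10 called therefore match the 20.7% of all genes called in either direction. The median log2 fold change of the 10 was -0.13, with 4 above 0, against -0.11 over all genes tested.

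Hsp90aa1 stood at 69.3, 65.5 and 50.95 CPM in the libraries labelled CD47-KO, against a lowest of 12.3, a median of 13.8 and a highest of 36.9 CPM in sedentary libraries. Every library labelled CD47-KO was above every sedentary library, and the nearest sedentary library was number 6, which stood apart from the other sedentary libraries. The log2 fold change was 1.79 (SE 0.29, adjusted p = 0.000488 by edgeR). It was 2.30 (adjusted p = 3.55e-05) against sedentary numbers 1 to 3 alone and 1.41 (adjusted p = 0.00744) against numbers 4 to 6 alone, both by edgeR. With the GC correction it was 1.08 (adjusted p = 0.0364 by edgeR); the Hsp90aa1 transcript is 43.7% GC, against a median of 49.7% over the genes tested. Hsp90aa1 counts are also uncertain because 47.5% of the 100-base windows of its transcript occur in other transcripts, most of them in the pseudogene Gm12346, which held 1.38 ± 0.382 CPM in CD47-KO (SD, n = 3) and 0.414 ± 0.139 CPM in sedentary libraries (SD, n = 6).

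Hsph1 stood at 109, 107 and 116 CPM in the libraries labelled CD47-KO, against a lowest of 54.04, a median of 63.3 and a highest of 74.9 CPM in sedentary libraries. These groups did not overlap either, and the libraries labelled CD47-KO lay close together. The log2 fold change was 0.79 (SE 0.21, adjusted p = 0.0132 by edgeR). Against sedentary numbers 1 to 3 alone it was 0.69 (adjusted p = 0.0477 by edgeR) and against numbers 4 to 6 alone 0.94 (adjusted p = 0.0176 by edgeR). Hsph1 lost the call with the GC correction (0.57, adjusted p = 0.0827 by edgeR) and without library 2 labelled CD47-KO (0.77, adjusted p = 0.0575 by edgeR). Groups that do not overlap were seen for 15.7% of all genes tested with CD47-KO higher and for 10.3% with CD47-KO lower. The exact two-sided permutation test over all 84 arrangements gave p = 0.0238 for Hsp90aa1 and for Hsph1. This is the smallest p that the test can give for groups of these sizes, because it doubles the smaller tail. Adjusted over the 30 permutation tests of the chaperones, it was 0.179 for each of these genes.

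The small heat shock proteins Cryab and Hspb1 did not pass. Cryab stood at 192, 339.8 and 181 CPM in the libraries labelled CD47-KO, against a lowest of 267, a median of 365 and a highest of 1057 CPM in sedentary libraries. The groups overlapped through library 2 labelled CD47-KO. Its log2 fold change was -1.13 (SE 0.46, adjusted p = 0.0948 by edgeR), DESeq2 called it lower (-1.11, adjusted p = 0.0462), and with the GC correction it was -0.73 (adjusted p = 0.351 by edgeR). Without sedentary libraries 1 and 6, which held its highest levels, it was -0.40 (adjusted p = 0.443 by edgeR). Hspb1 had a log2 fold change of -0.02 (SE 0.34) on overlapping levels of 176 to 280.3 CPM in CD47-KO and 139 to 435 CPM in sedentary libraries. Cryab overlaps its neighbour Hspb2 on the other strand, and since the strand setting of the counting is not given, reads from the stretch that both genes cover cannot be told apart.

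Within the HSP70 group the log2 fold changes in CD47-KO against sedentary were -0.24 (SE 0.34) for Hspa8, 0.21 (SE 0.27) for Hspa5, -0.64 (SE 0.74) for Hspa1a and -0.30 (SE 0.73) for Hspa1b, and none passed. The inducible pair, with the widest errors, spread widely within both groups. Hspa1a was at 32.7 CPM in library 2 labelled CD47-KO, against 10.96 and 10.48 CPM in the others, and at 91.9 and 32.98 CPM in sedentary libraries 1 and 3, against 8.17 to 13.7 CPM in the other 4. Without sedentary library 1 its log2 fold change was 0.19. The co-chaperones Dnajb1 (-0.26, SE 0.31) and Bag3 (0.07, SE 0.23) did not pass. Bag3 was at 189 to 204 CPM in CD47-KO, inside the 139 to 319 CPM of sedentary libraries.

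Of the muscle fibre markers, 4 of 10 were lower in CD47-KO than in sedentary libraries and 0 higher, or 1 lower with the GC correction, against 8.75% of all genes lower as counted and 5.0% with the correction. Their summed level was 115858 to 168800.5 CPM in the libraries labelled CD47-KO and 150621 to 280505 CPM in sedentary libraries, and without sedentary library 1 the sedentary range was 209636 to 280505 CPM, above every library labelled CD47-KO. Schwann cell markers (2 of 7 lower, median log2 fold change -1.39) and fibroblast markers (2 of 6 higher, median -0.05) had calls as well. So did endothelial markers (1 of 8 lower, median -0.61) and macrophage markers (1 of 8 higher, median 0.02), where 11.9% of all genes were higher as counted. With the correction 0 of these calls were kept. The part of these markers in the chaperone results was not tested. In these bulk samples, fewer cells of a type and less RNA per cell cannot be told apart. The labels name no batch, and a batch that held the libraries labelled CD47-KO alone and their labelled genotype cannot be told apart.

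**Figure D2:**
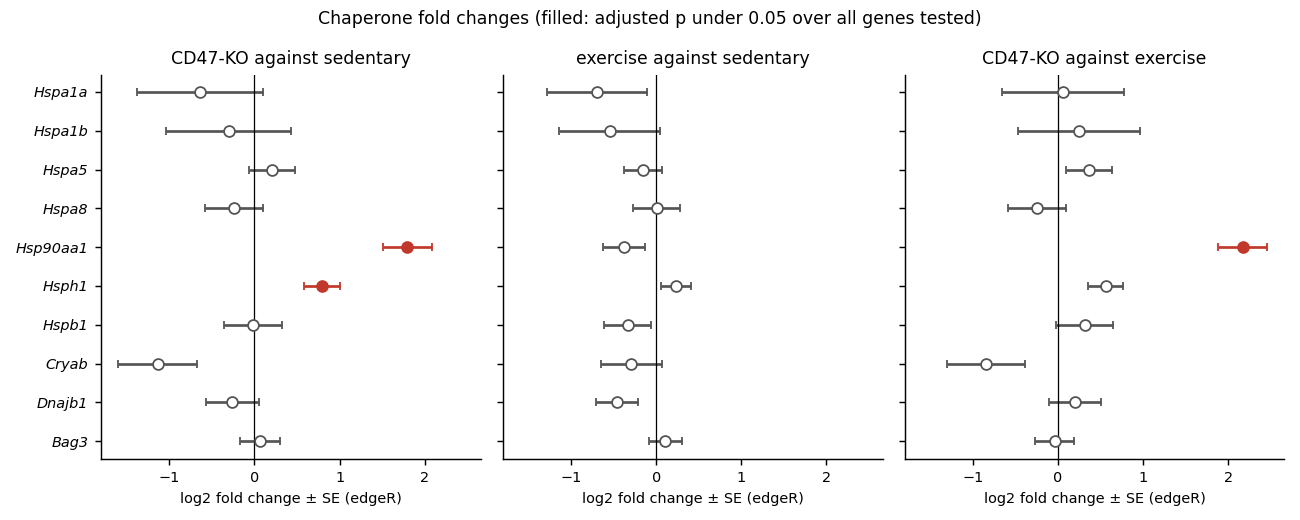
Log2 fold change ± SE of each chaperone from edgeR in CD47-KO against sedentary, exercise against sedentary and CD47-KO against exercise. Filled points have an adjusted p under 0.05 over all genes tested: Hsp90aa1 (1.79) and Hsph1 (0.79) in the first panel, none in the second, and Hsp90aa1 (2.17) in the third.

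The libraries labelled CD47-KO were also set against exercise, a comparison that uses the same 3 libraries labelled CD47-KO as that with sedentary. Hsp90aa1 rose and was 4.49-fold higher in CD47-KO than in exercise, and it was the only chaperone of the 10 that passed, with 0 lower. Over all genes tested, 12.2% were called higher and 8.34% lower by edgeR, or 20.6% in either direction. The median log2 fold change of the 10 was 0.22, with 7 above 0, against -0.08 over all genes tested.

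Hsp90aa1 stood at 50.95 to 69.3 CPM in libraries labelled CD47-KO, against a lowest of 11.4, a median of 13.6 and a highest of 17.5 CPM in exercise libraries, with no overlap. Its log2 fold change was 2.17 (SE 0.29, adjusted p = 8.57e-05 by edgeR), and 1.54 with the GC correction (adjusted p = 0.00433 by edgeR). It was 2.31 against exercise numbers 1 to 3 alone and 2.12 against numbers 4 to 6 alone. Hsph1 stood at 107 to 116 CPM in libraries labelled CD47-KO, against a lowest of 44.1, a median of 75.2 and a highest of 97.6 CPM in exercise libraries, again with no overlap. Its log2 fold change was 0.56 (SE 0.21, adjusted p = 0.0702 by edgeR), and it passed in DESeq2 (0.62, adjusted p = 0.027) and in edgeR against exercise libraries 4 to 6 alone (0.90, adjusted p = 0.0184), but not against exercise libraries 1 to 3 alone (0.36, adjusted p = 0.247). Groups that do not overlap were seen for 17.5% of all genes tested with CD47-KO higher and for 14.1% with CD47-KO lower. Cryab had -0.84 (SE 0.46, adjusted p = 0.214 by edgeR), with libraries labelled CD47-KO at 181 to 339.8 CPM and exercise libraries at 179.6 to 515 CPM.

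In exercise against sedentary libraries, 0 of the 10 chaperones rose or fell. No gene of 17975 passed in edgeR (0%). An unadjusted p under 0.05 was found for 665 genes, fewer than the 1 in 20 that chance alone gives, and none of these was a chaperone. DESeq2 called 10 genes, again with 0 chaperones, and limma-voom called 0. Of the 10 chaperones, 3 had a log2 fold change above 0 and the median was -0.31, against -0.03 over all genes tested. Without sedentary library 1 the chaperone median was -0.03. The groups overlapped in all 10 chaperones; over all genes tested they did not overlap in 0.1% with exercise higher and in 0.0612% with exercise lower.

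The smallest p was that of Dnajb1. It stood at a lowest of 5.22, a median of 6.41 and a highest of 8.83 CPM in exercise libraries, against 5.39, 8.20 and 13.9 CPM in sedentary libraries, with a log2 fold change of -0.46 (SE 0.25) and overlapping groups. Its edgeR p was 0.0849 before adjustment and 0.9998 after it, and the adjusted p was 0.9998 for every chaperone. Hsp90aa1 had -0.38 (SE 0.25), and -0.05 without sedentary library 6. The constitutive HSP70 Hspa8 averaged 946 ± 294 CPM in exercise and 941 ± 389 CPM in sedentary libraries (SD, n = 6 each), with a log2 fold change of 0.01 (SE 0.28).

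For the inducible HSP70 genes the difference between exercise and sedentary libraries was below 0 in numbers 1 to 3 and above 0 in numbers 4 to 6, but the test of this contrast did not pass. Among numbers 1 to 3, Hspa1a stood at 11.96, 22.4 and 4.67 CPM in exercise libraries, against 91.9, 8.17 and 32.98 CPM in sedentary libraries (log2 fold change -1.78, SE 0.71). Among numbers 4 to 6 it stood at 12.9, 22.6 and 29.5 CPM in exercise libraries, against 11.6, 13.7 and 9.77 CPM in sedentary libraries (0.88, SE 0.70). The groups overlapped within both sets. The difference between these effects was -2.66 (SE 1.00) for Hspa1a and -2.58 (SE 1.04) for Hspa1b, with edgeR p-values of 0.0205 and 0.0285 before adjustment and 0.967 for both after it. Without sedentary library 1 the difference for Hspa1a was -1.55. In the fit of all 12 exercise and sedentary libraries no gene of 17072 passed this test in edgeR (0%). An unadjusted p under 0.05 was found for 814 genes, fewer than the 1 in 20 that chance alone gives. Hspa1a and Hspa1b are not independent here, because 48.6% and 49.9% of the 100-base windows of their transcripts occur elsewhere, nearly all in each other, and how their shared reads were split is not given. Hspa1a was 1.25 to 2.51 times Hspa1b in CPM in the 15 libraries.

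Between the number sets, with exercise and sedentary libraries pooled, Hspa8 fell and Hsph1 rose in numbers 1 to 3 relative to numbers 4 to 6. Hspa8 stood at 510.4 to 794 CPM in the 6 libraries of numbers 1 to 3, against 1067 to 1479.6 CPM in the 6 of numbers 4 to 6, with no overlap, whichever group they belonged to. The log2 fold change was -0.92 (SE 0.15, adjusted p = 0.000813 by edgeR, with group in the model). Exercise libraries alone showed the same order, with 610.1, 732 and 703 CPM in numbers 1 to 3 and 1157, 1254 and 1219 CPM in numbers 4 to 6. Sedentary libraries stood at 551, 794 and 510.4 CPM in numbers 1 to 3 and 1067, 1241 and 1479.6 CPM in numbers 4 to 6. The libraries labelled CD47-KO were at 797, 688 and 905 CPM and lay within or just above the range of numbers 1 to 3. The log2 fold change of Hspa8 in CD47-KO was 0.44 (adjusted p = 0.336) against sedentary numbers 1 to 3 alone and -0.71 (adjusted p = 0.106) against numbers 4 to 6 alone, both by edgeR.

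Hsph1 stood at 69.3 to 97.6 CPM in numbers 1 to 3, against 44.1 to 70.1 CPM in numbers 4 to 6, with a slight overlap and a log2 fold change of 0.46 (SE 0.13, adjusted p = 0.0176 by edgeR). Of all 15571 genes tested, 15.8% were higher and 15.7% lower in numbers 1 to 3, so 2 of 10 chaperones is below the 31.5% of all genes. Sets that do not overlap were seen for 8.75% of genes in the higher direction and 9.6% in the lower direction. Immediate early genes such as Fos and Egr1, which respond within minutes to contraction, stress and handling, moved with the sets: 15 of 19 were higher in numbers 1 to 3, with a median log2 fold change of 1.501, against 0.02 over all genes tested. Their summed level was 796 to 2154 CPM in numbers 1 to 3 and 270.1 to 609 CPM in numbers 4 to 6, and the part of these genes in the Hspa8 difference was not tested. Tendon markers (4 of 6 higher, 0 lower, median log2 fold change 2.34) and Schwann cell markers (4 of 7 higher, 0 lower, median 1.21) also moved with the sets, and so did adipocyte markers (4 of 7 higher, 1 lower, median 2.06) and fibroblast markers (3 of 6 higher, 1 lower, median 0.92); their part was not tested either. Hspa8 shares 31.6% of its 100-base windows with other transcripts, chiefly Gm15459, whose level was 26.8 to 105 CPM in exercise and 21.2 to 69.8 CPM in sedentary libraries.

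**Figure D3:**
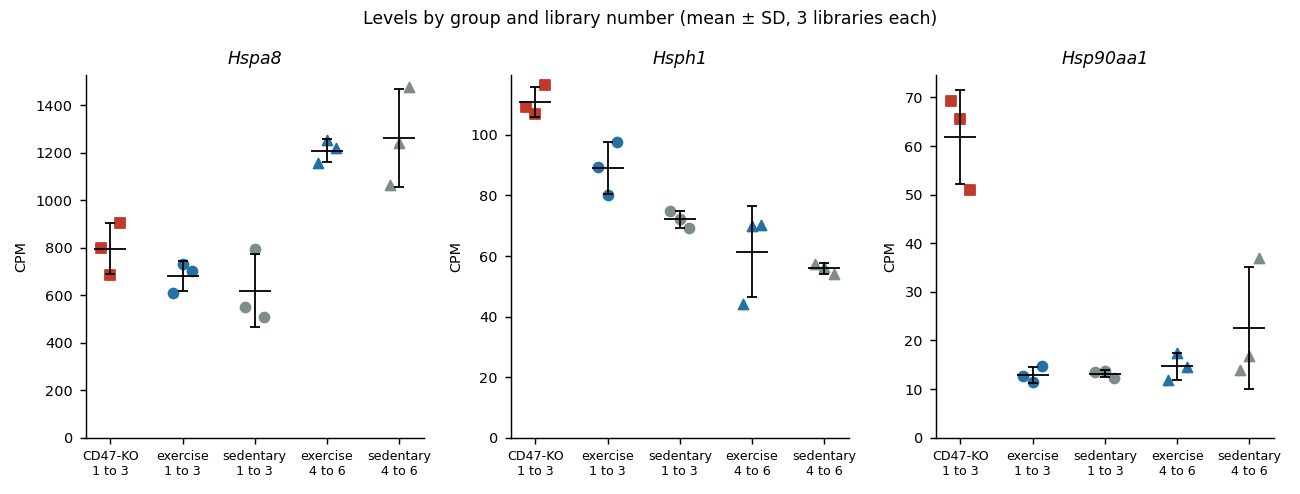
Levels of Hspa8, Hsph1 and Hsp90aa1 in CPM for libraries labelled CD47-KO and for exercise and sedentary libraries by number set, with points for libraries and lines for mean ± SD of 3 libraries each. Hspa8 is at 510.4 to 794 CPM in numbers 1 to 3 and 1067 to 1479.6 CPM in numbers 4 to 6 of both groups, while Hsp90aa1 separates the libraries labelled CD47-KO from all others.

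The same few libraries stood at the ends of the range for several chaperones. Sedentary library 1 held the highest level of all 15 libraries for 6 of the 10 chaperones (Hspa1a, Hspa1b, Hspb1, Cryab, Dnajb1 and Bag3), and exercise library 3 held the lowest for 4 (Hspa1a, Hspa1b, Hspb1 and Cryab). These libraries also lay at the ends of the slow fibre genes, the contractile genes of oxidative fibres such as Myh7 and Tnni1, all 10 of which were detected in every library. The summed level of the slow fibre genes was 90.4 CPM in exercise library 3 and 24755 CPM in sedentary library 1. The next highest were 9122 CPM in sedentary library 3 and 8073 CPM in library 2 labelled CD47-KO, which were also next in Hspa1a (32.98 and 32.7 CPM). Between these and exercise library 3, Hspa1a did not follow the slow fibre order. It was at 29.5 CPM in exercise library 6, with 1580 CPM of slow fibre genes. In sedentary library 6, with 4322 CPM of slow fibre genes, it was at 9.77 CPM. Cryab and Hspb1 did not follow this order below sedentary library 1: their second-highest levels (785 and 334 CPM) were in sedentary library 6, with 4322 CPM of slow fibre genes, and Cryab in library 2 labelled CD47-KO (339.8 CPM) was below 5 of 6 exercise libraries. Hspa8 did not follow it at all, with 703 CPM in exercise library 3 and 551 CPM in sedentary library 1.

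By group, the slow fibre sum was 1098 to 8073 CPM in CD47-KO, 90.4 to 4567 CPM in exercise and 1463 to 24755 CPM in sedentary libraries. Sedentary library 1 stood out in the tendon sum (729 CPM, against 31.8 to 271 CPM in the other 14 libraries) and the fibroblast sum (1052 CPM, against 122 to 413 CPM) as well. Sedentary library 6, with the highest Hsp90aa1 of the sedentary group, had the highest adipocyte sum (567.6 CPM, against 95.9 to 273 CPM in the others). Whether the mix of fibres and other tissue sets these chaperone levels was not tested.

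**Figure D4:**
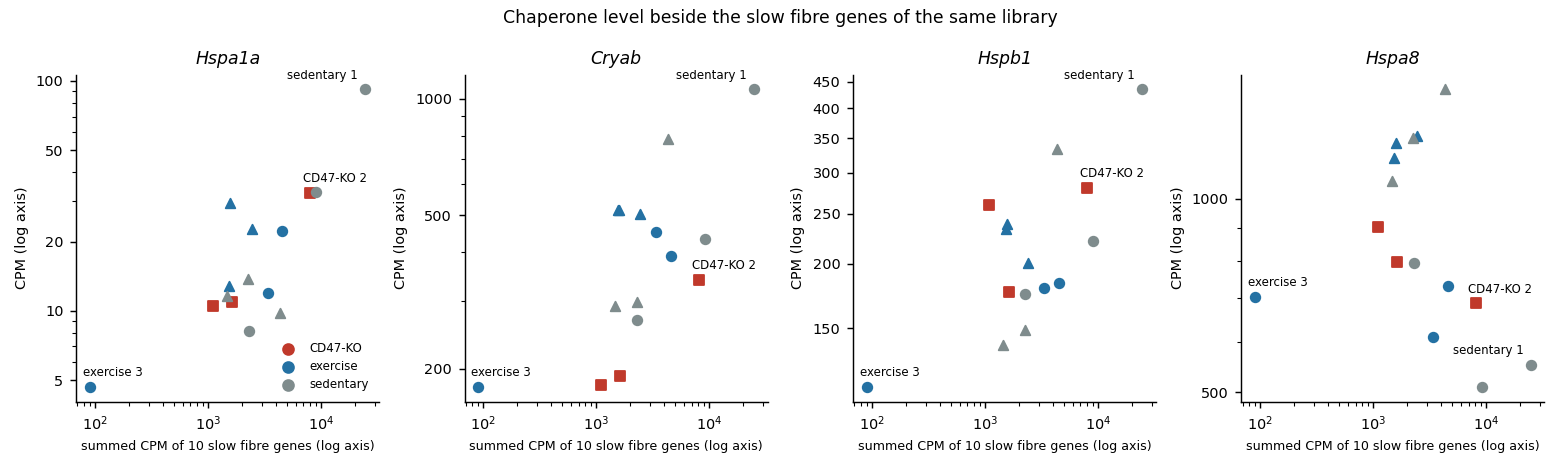
Level of Hspa1a, Cryab, Hspb1 and Hspa8 in CPM against the summed CPM of 10 slow fibre genes in the same library, both on log axes, with each of the 15 libraries as a point (circles for numbers 1 to 3, triangles for numbers 4 to 6, squares for CD47-KO). Exercise library 3 (90.4 CPM of slow fibre genes) and sedentary library 1 (24755 CPM) hold the lowest and highest levels of Hspa1a, Cryab and Hspb1.

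Likeness of pattern was measured as the root mean square difference of centred log2 CPM over the 15 libraries, among 10429 genes. The nearest gene to Hspa1a was Hspa1b (0.22), followed by Pdlim1 (0.49) and Rab15 (0.49). Cryab was nearest to Slc12a4 (0.23), Bcam (0.26) and Mgp (0.29). Hspa5 was nearest to Arhgap26 (0.29), Dhx33 (0.29) and Cand1 (0.30), and Bag3 to Alpk3 (0.16), Lipe (0.18) and Exosc10 (0.18). Apart from the Hspa1a and Hspa1b pair, no chaperone was among the 3 nearest genes of these 4. Of the other chaperones, Hsph1 had the co-chaperone St13, described in the closing section, among its 3 nearest genes (0.18).

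The wider chaperone network was described through 10 lists of genes by role, some of which hold chaperones of the 10. The counts below for CD47-KO against sedentary stand against 11.9% of all genes higher and 8.75% lower as counted, and 4.73% higher and 5.0% lower with the GC correction. As counted, at least 1 gene rose in 7 of the 10 lists, and in fewer with the GC correction. Lists of these lengths can hold such a gene at the background share alone, so this count does not show a rise of the network. Of the cytosolic HSP70 and HSP110 genes, 3 of 12 rose and 0 fell, with a median log2 fold change of -0.22: beside Hsph1, these were the HSP110 genes Hspa4 (135 ± 5.47 CPM in CD47-KO and 62.9 ± 14.3 CPM in sedentary libraries, 1.11, adjusted p = 0.000912 by edgeR) and Hspa4l (1.58). With the GC correction 1 was higher, Hspa4 (0.81). Of the HSP90 genes and co-chaperones, 4 of 16 rose and 2 fell, with a median of 0.17, and 2 were higher with the GC correction, Hsp90aa1 and Ppid. Those that rose were Hsp90aa1, the cyclophilin Ppid (1.76), Chordc1 (1.52) and the calcyclin-binding protein Cacybp (1.39). With the correction Chordc1 turned to -0.10 and Cacybp was 0.28, and neither passed. Those that fell as counted were the myosin chaperone Unc45a (-0.79) and the kinase co-chaperone Cdc37 (-0.57), which were -0.27 and -0.47 with the correction and did not pass.

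Of the J proteins, 6 of 19 rose and 0 fell in CD47-KO against sedentary, with a median log2 fold change of 0.43. With the GC correction 3 were higher, but Dnajc21 was the only J protein called both ways, the others being Dnajc7 (0.78) and Dnajb6 (0.54). Those with the smallest p were Dnajc21, a ribosome biogenesis factor (96.5 ± 9.78 CPM in CD47-KO and 25.9 ± 6.30 CPM in sedentary libraries, 1.90), the ribosome-associated Dnajc2 (1.61) and Dnaja1 (1.03), which is -0.04 with the GC correction. Of the small heat shock proteins, 0 of 8 rose and 2 fell, with a median of -0.50, and none was called with the GC correction. Those that fell were the muscle proteins Hspb2 (-1.18), whose reads are uncertain where it overlaps Cryab, and Hspb3 (-1.20). In the list of BAG proteins and chaperone-assisted autophagy 0 of 11 rose and 1 fell (median -0.21), the ubiquitin ligase Stub1 (-0.97, or -0.40 and not called with the GC correction). None of 6 heat shock factors and regulators passed; the smallest p was that of the exchange factor Hspbp1 (-0.44, adjusted p = 0.0604 by edgeR).

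In the endoplasmic reticulum, 5 of 23 chaperones and stress genes rose and 4 fell in CD47-KO against sedentary, with a median log2 fold change of -0.06. The HSP90 of this compartment, Hsp90b1, was at 102 ± 4.07 CPM in CD47-KO and 37.3 ± 5.30 CPM in sedentary libraries (1.46, adjusted p = 3.59e-05 by edgeR) and was the 1 gene of the list called with the GC correction (0.53). Dnajc3 (1.14) and the lectin chaperone calnexin (Canx, 1.10) also rose, and Manf (-1.03), Creld2 (-1.01) and the disulfide isomerase P4hb (-0.64) fell. Of the mitochondrial chaperones 3 of 10 rose and 0 fell, with a median of 0.13: HSP60 (Hspd1, 245 ± 18.9 CPM in CD47-KO and 103 ± 19.3 CPM in sedentary libraries, 1.25), the unfoldase Clpx (1.74) and the mitochondrial HSP70 Hspa9 (0.76), of which Hspd1 (0.99) and Clpx (1.22) were called with the GC correction.

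The cage-like chaperonin CCT had 1 of 8 genes higher (Cct8, 0.44, or -0.30 and not called with the GC correction) and 1 lower (Cct7, -0.47), with a median of 0.14, and 2 lower with the GC correction, Cct7 and Tcp1. Of its partner prefoldin, 1 of 6 rose (Vbp1, 1.58), with a median of -0.05, and with the correction Vbp1 was at -0.06 and not called, while Pfdn4 was lower (-0.84). None of the 19 immediate early genes passed in this comparison (median -0.32), with Ier2 at -1.13 (adjusted p = 0.142 by edgeR). The median over all genes tested was -0.11. In exercise against sedentary, 0 genes of these lists passed in edgeR. In CD47-KO against exercise, where 12.2% of all genes were higher and 8.34% lower as counted, 6 of 19 J proteins were higher and 0 lower (median 0.41). Of the HSP90 genes and co-chaperones 5 of 16 were higher and 1 lower (median -0.04), and of the endoplasmic reticulum genes 5 of 23 were higher and 2 lower (median -0.22). With the GC correction, where 5.42% of all genes were higher and 4.17% lower, these lists had 4, 1 and 2 genes higher and 0 lower. Of 6 heat shock factors and regulators, 1 was higher than in exercise as counted, Hsf2 (1.33, adjusted p = 0.0384 by edgeR), and 1 lower (median -0.19). With the correction Hsf2 was -0.25, and 0 of the 6 were called.

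Between the number sets, with a background of 15.8% of genes higher in numbers 1 to 3 and 15.7% lower, endoplasmic reticulum genes had 9 of 23 lower and 2 higher. Prefoldin had 4 of 6 lower, CCT 4 of 8 and the mitochondrial chaperones 4 of 10, each with 0 higher, while the J proteins had 4 of 19 higher and 1 lower.

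**Figure D5:**
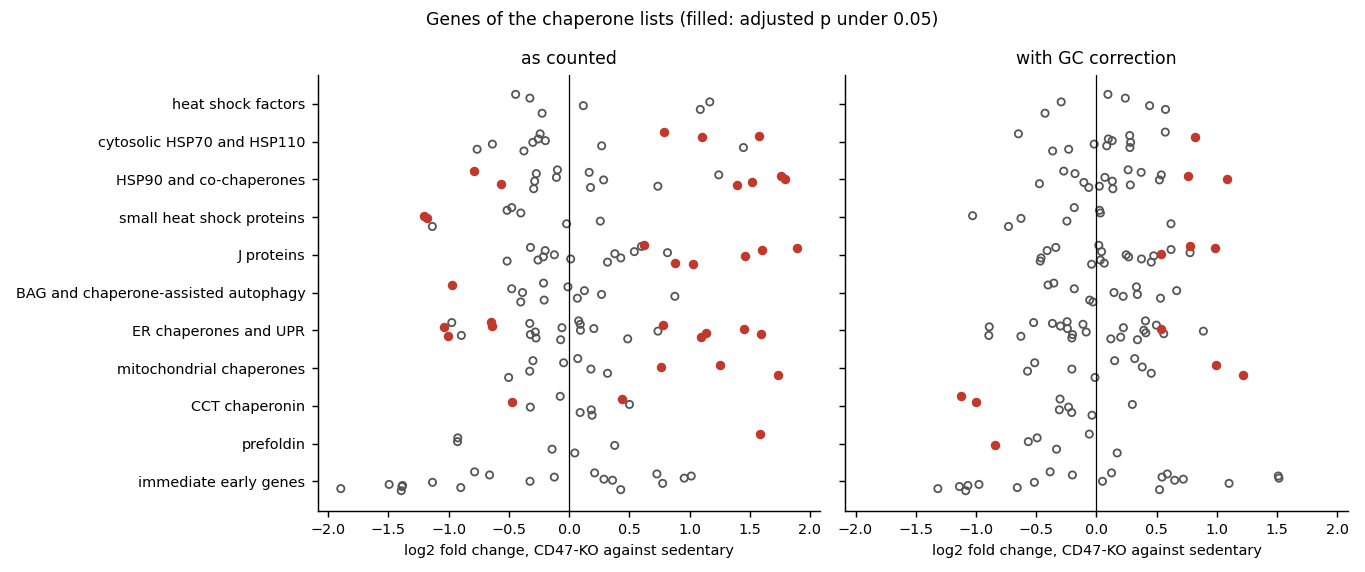
Log2 fold change in CD47-KO against sedentary for each gene of the chaperone lists and of the immediate early list, as counted (left) and with the GC correction (right). Each point is a gene and filled points have an adjusted p under 0.05 by edgeR: 6 of 19 J proteins are filled and higher as counted and 3 with the correction, and 2 of 8 small heat shock proteins are filled and lower as counted and none with the correction.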

How the data were processed

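The authors deposited counts per gene for 22798 symbols in 15 libraries, prepared with the NEBNext Ultra RNA kit per the labels' protocols. The build GRCm38 and the tools HISAT2 2.0.1, HTSeq 0.6.1 and Trimmomatic 0.30 are named in the submitters' processing notes, and a strand setting is not given in the sources used here. The 12 exercise and sedentary columns were matched to samples by their descriptions and the CD47-KO columns by the number in the titles, and 0 lines stood for reads outside genes. Library numbers are those of the titles; the descriptions number exercise libraries 4, 5 and 6 as 6, 7 and 8. Values of 4, 8 and 12 made up 32.1 to 50.2% of values from 1 to 15, so small counts may not be single reads, and why was not tested. Within groups, any 2 libraries differed with a chi-square of at least 72.03 for each degree of freedom, so none was a copy of another.

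Counts were filtered (filterByExpr, 17975 genes), scaled by TMM and tested with edgeR 4.0.16 (R 4.3.3, quasi-likelihood, robust, prior count 2) in 1 fit of all 15 libraries, with Benjamini-Hochberg adjustment over all genes tested and a threshold of 0.05. The number sets were compared in the 12 exercise and sedentary libraries with group as a covariate. The GC correction used a lowess curve (span 0.3) of log2 CPM on transcript GC content (GENCODE vM21, 22711 symbols matched) as an offset. Alternatives were DESeq2 1.42.0, limma-voom (limma 3.58.1), RLE factors, other filters, 2-group fits, a fit without robust dispersion, blocks by replicate number or set, single sets, and fits without single libraries or without sedentary libraries 1 and 6. The GC correction with the block, its use for the number sets, and single sets of exercise libraries against CD47-KO were added after the data were seen. Titles, unlike the descriptions, give exercise and sedentary libraries the same 6 numbers, on which the block rests: same-numbered libraries correlated at 0.194 to 0.364 within group means, against a median of 0.265 for other numbers of the same set, and the CD47-KO numbers did not pair (-0.102 to 0.149). The edgeR fit of the group comparisons was tested on simulated counts, with 100 genes changed at each size. At a log2 fold change of 1 it recovered 19 in CD47-KO against sedentary and 34 in exercise against sedentary. In CD47-KO against exercise it recovered 25. At a log2 fold change of 2 it recovered 84, 91 and 89 in the same order. False calls numbered 4, 5 and 8. A gene that did not pass may therefore still have changed by a log2 fold change of 1.

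The members, lists and tests were chosen with earlier results of these data known. Genes outside the 10 were named by a rule: up to 3 per list and direction with the smallest p past the threshold in CD47-KO against sedentary, or the single smallest p where none passed, and the 3 nearest patterns of Hspa1a, Hspa5, Cryab and Bag3 among genes of mean log2 CPM of at least 1, with clone and gene model names left out. Pseudogenes named for shared sequence, the genes of the closing section, and list genes called with the GC correction alone were chosen after their values were seen. Hsf2 was also chosen in this way. Shared sequence was the share of 100-base windows of a gene's longest transcript found in transcripts of other genes.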

Additional observations from a re-analysis of the deposited data

Results flagged for a closer look

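Within the exercise and sedentary groups, 5 of 20 combinations of chaperone and group held a library far from the others by Dixon's test, which chance flags in about 1 in 20 groups. Of the 5, 3 fall on sedentary library 1. Hspa1a (91.9 CPM), Hspa1b (50.6 CPM) and Bag3 (319 CPM) were far above the other sedentary libraries in sedentary library 1. Hsp90aa1 was far above them in sedentary library 6 (36.9 CPM). Cryab was far below the other exercise libraries in exercise library 3 (179.6 CPM).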

How the results depend on the processing

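For single genes under other settings, 334 values kept their direction and side of the threshold, 51 reversed, 6 newly passed and 1 no longer passed; with 1 library left out, 319 of 348 were kept; the causes of the changes were not tested unless stated. Many reversals concern values near 0, but some start from larger values. In exercise against sedentary, Hspa1a was -0.69 in the fit of all 15 libraries and 0.87 in numbers 4 to 6 alone. Hspa1b was -0.55 and 0.98 in these fits. In CD47-KO against sedentary, Hspb1 was 0.0016 with RLE factors, 0.028 without a filter, 0.10 with the replicate block, 0.62 with the GC correction, 0.52 without sedentary libraries 1 and 6, 0.022 with 2 groups only, 0.16 against sedentary 4 to 6, 0.083 in limma-voom and 0.0090 in DESeq2. Hspa1b was 0.28 (GC correction), 0.40 (without sedentary 1 and 6), 0.89 (sedentary 4 to 6) and 0.076 (limma-voom), and Hspa1a was 0.16 without sedentary 1 and 6 and 0.57 against sedentary 4 to 6. Hspa8 was 0.33 (replicate block) and 0.44 (sedentary 1 to 3), Hspa5 -0.24 (GC correction) and -0.017 (sedentary 4 to 6), Dnajb1 0.032 (GC correction) and Bag3 -0.12 (sedentary 1 to 3).

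In exercise against sedentary, Hspa8 was -0.026 (RLE), -0.082 (GC correction), -0.017 (GC correction with the replicate block), -0.0096 (2 groups only), -0.022 (DESeq2), -0.031 (1 CPM filter) and -0.080 (numbers 4 to 6). Without sedentary 1 and 6, Hspa1a was 0.059, Hspa1b 0.12, Hspb1 0.16 and Cryab 0.40; in numbers 4 to 6 alone they were 0.87, 0.98, 0.094 and 0.14, and Bag3 was -0.18 in numbers 1 to 3 alone. In CD47-KO against exercise, Bag3 was 0.016 (RLE), 0.0073 (no filter), 0.44 (GC correction), 0.000374 (without sedentary 1 and 6), 0.050 (2 groups only), 0.022 (DESeq2) and 0.044 (exercise 1 to 3). Hspa1a was -0.18 (replicate block) and -0.22 (exercise 4 to 6), Hspa1b -0.031 and -0.015, Hspa8 0.28 (replicate block) and 0.28 (exercise 1 to 3), and Hspa5 -0.011 (GC correction).

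Counts moved too. With the GC correction 1749 genes were called in CD47-KO against sedentary and 1724 against exercise, with 1 chaperone higher than sedentary. DESeq2 called 1 chaperone lower than sedentary (Cryab) and 10 genes in exercise against sedentary. In CD47-KO against exercise 2 chaperones were higher with the 1 CPM filter, without sedentary 1 and 6, with 2 groups only, against exercise 4 to 6 and in DESeq2. The replicate block changed no chaperone call, with Hsp90aa1 at 2.11 and Hsph1 at 0.57 in CD47-KO against sedentary.

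With 1 library left out, CD47-KO against sedentary ranged over -1.43 to 0.19 (Hspa1a), -1.05 to 0.49 (Hspa1b), -0.013 to 0.36 (Hspa5), -0.40 to 0.012 (Hspa8), -0.19 to 0.21 (Hspb1), -0.50 to 0.043 (Dnajb1), 1 to 2 chaperones higher and 2178 to 3881 genes called. CD47-KO against exercise ranged over -0.73 to 0.38 (Hspa1a), -0.49 to 0.59 (Hspa1b), -0.036 to 0.50 (Dnajb1), -0.048 to 0.050 (Bag3), 1 to 2 chaperones higher and 2292 to 3554 genes. Exercise against sedentary ranged over -0.92 to 0.18 (Hspa1a), -0.77 to 0.29 (Hspa1b), -0.12 to 0.17 (Hspa8) and -0.43 to 0.032 (Cryab), and the contrast of exercise effects between the sets called 0 to 1 genes. Hsp90aa1 stayed at 1.67 to 2.21 in CD47-KO against sedentary and 2.08 to 2.34 against exercise, and Hsph1 at 0.77 to 0.87 and 0.50 to 0.69.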

Other observations

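The following genes were chosen after their values were seen. Hsp90ab1, the constitutive partner of Hsp90aa1 in cytosolic HSP90, was at 1273 ± 67.7 CPM in the libraries labelled CD47-KO and 1369 ± 178 CPM in sedentary libraries (SD, n = 3 and 6), and its log2 fold change of -0.10 (SE 0.19, adjusted p = 0.751 by edgeR) did not pass where Hsp90aa1 rose. It was at 1464 ± 206 CPM in exercise libraries (SD, n = 6). St13, which links HSP70 to HSP90, was at 91.2 ± 10.6 CPM in CD47-KO and 54.1 ± 9.46 CPM in sedentary libraries (0.75, SE 0.18, adjusted p = 0.00699 by edgeR). Against the 60.1 ± 7.85 CPM of exercise libraries its log2 fold change in CD47-KO was 0.60 (SE 0.18, adjusted p = 0.0246 by edgeR). These values of St13 are as counted, and whether its calls hold with the GC correction is not given. St13 was also among the 3 genes nearest to Hsph1 in pattern over the 15 libraries, so its rise is not evidence apart from that of Hsph1.

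Gm12346, a sequence close to Hsp90aa1, had a log2 fold change of 1.74 in CD47-KO against sedentary (SE 0.39, adjusted p = 0.0053 by edgeR), near the 1.79 of Hsp90aa1. Both values are as counted, and a value of Gm12346 with the GC correction is not given. How reads common to both were divided is not given in the sources used here. Gm15459, a sequence close to Hspa8, was at 62.7 ± 1.35 CPM in CD47-KO, 72.1 ± 31.96 CPM in exercise and 33.7 ± 19.5 CPM in sedentary libraries.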
